A study of Mus musculus with 4 samples.

Results

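SiglecF hi and SiglecF lo neutrophils of the injured WT heart were compared, each as 1 pooled library, so that 2 of the 4 libraries of the series carry the comparison. Male mice on a C57BL/6 background, aged 8 to 12 weeks, had the left anterior descending artery closed for 60 min, and hearts were taken on day 3 of reperfusion (MI/R). Cells of 8 mice were pooled per library and sorted as CD45.2+CD11b+Ly6G+ cells with or without SiglecF. The labels call the subsets SiglecF+ and SiglecF-, and the study calls them SiglecF hi and SiglecF lo. The WT mice carried no altered allele, while the other pair of libraries came from mice that lack the inhibitory receptor CD300a (label CD300a_KO, *Cd300a-/-*), with the same surgery, day, age and gate.

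Neutrophils leave the bone marrow with granules already filled, and the transcripts of granule proteins decline as the cell matures and ages. SiglecF is a sialic acid-binding receptor best known from mouse eosinophils and alveolar macrophages, and tissue neutrophils can acquire it in tumours, in inflamed airways and in the infarcted heart. Such neutrophils are known as long-lived tissue cells that differ from blood neutrophils in their cytokine, lysosomal and surface receptor genes.

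Depth differed between the libraries, with 19278243 counts on genes for WT SiglecF hi cells and 9631901 for WT SiglecF lo cells. At least 1 count was recorded for 15160 genes of the former and 12931 genes of the latter. Of the 25655 genes in the files, 6518 had a mean of the WT libraries above 10 TPM (a level per transcript length, scaled to the same total in every library) and were compared. The other 19137 were not. A gene near this limit could pass on the strength of 1 library alone. Each difference is a log2((TPM + 1) ratio, SiglecF hi over SiglecF lo) from which the median of all genes compared was taken off, and a gene was counted as higher or lower when this centred ratio was past 1 or -1. Intervals in square brackets are 95% counting intervals, which cover counting error only. Each is for the ratio with 1 TPM added. At levels near or below 1 TPM it is narrower than the error of the counts alone. No difference has a replicate check, because each side is 1 library.

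The median taken off was 0.52, or 1.43-fold, so that 79.9% of genes had a higher TPM in SiglecF hi neutrophils before centring. Transcripts of *S100a8* and *S100a9*, the subunits of the calprotectin complex, held 13.8% of all TPM in the SiglecF lo library and 2.41% in the SiglecF hi library. The part of these genes in the shift was not tested. After centring, 327 genes (5.02%) were higher and 510 (7.82%) were lower in SiglecF hi neutrophils. These shares of all genes are the reference for the counts of each list below. Without centring the split was 1296 higher (19.9%) and 201 lower (3.08%). Directions are therefore given relative to the median gene, and a gene with a centred ratio between -0.52 and 0 had the opposite sign without centring.

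The genes on each side differed in level. The 510 lower genes had a median mean level of 53.1 TPM, and 188 of them lay above 100 TPM. The 327 higher genes had a median of 17.1 TPM, and 33 lay above 100 TPM. Of the lower genes 102 passed -2 and 35 passed -3, whereas 29 of the higher genes passed 2 and 8 passed 3. The counting interval lay wholly past the threshold for 180 of the higher and 389 of the lower genes. It stayed on 1 side of 0 for 324 and 508, which is every called gene that has an interval. The other 3 and 2 had a count of 0 in 1 library and were given no interval. Provisional gene symbols made up 10 of the higher and 15 of the lower genes.

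The *Cd300a-/-* pair shares no library with the WT pair, differs in genotype and is no replicate. Over the same genes, its own median shift was 0.63, and 460 genes (7.06%) were higher and 625 (9.59%) lower in its SiglecF hi library. Of the 327 genes higher in WT, 296 had the same sign in that pair and 105 were also past 1, which is 32.1% of the WT genes and 22.8% of those higher in *Cd300a-/-*. Of the 510 genes lower in WT, 461 had the same sign and 354 were also past -1, which is 69.4% of the WT genes and 56.6% of those lower in *Cd300a-/-*. The median of the lower genes was -1.38 in WT and -1.33 in *Cd300a-/-*, and that of the higher genes was 1.25 and 0.74. The share with the same sign was 90.5% for the rises and 90.4% for the falls. Differences between the pairs were not tested.

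**Figure D1:**
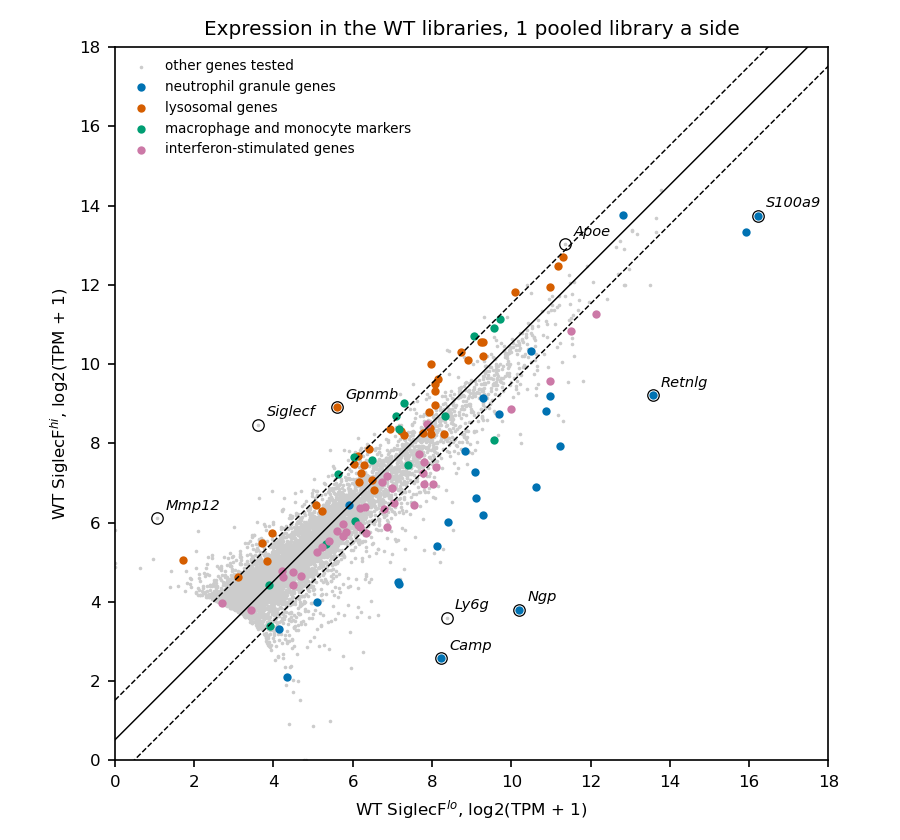
Each point is 1 of the 6518 genes compared, by its log2(TPM + 1) in WT SiglecF lo (horizontal) and WT SiglecF hi (vertical) neutrophils, with 4 gene lists in colour. The solid line is the median shift of 0.52 and the dashed lines are 1 above and below it; most granule genes lie below the lower line.

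The sorting markers were read first. *Siglecf* (ENSMUSG00000039013, GRCm39 chr7:43000765-43008955) stood at 354 TPM in SiglecF hi against 11.3 TPM in SiglecF lo neutrophils, from 8482 and 158 counts, a centred ratio of 4.34 [4.13, 4.55]. In the *Cd300a-/-* pair it was 405 and 15.3 TPM. *Ly6g* (ENSMUSG00000022582, GRCm39 chr15:75027089-75030975) encodes the surface antigen that defines both gates, yet its transcript was at 11.1 TPM in SiglecF hi against 330 TPM in SiglecF lo neutrophils, from 92 and 1599 counts. Its centred ratio was -5.29 [-5.57, -5.01], and -5.00 in *Cd300a-/-*. The *Ly6g* transcript of the Ly6G+SiglecF hi gate was thus low, and the label of that gate rests on the protein. *Itgam*, which encodes CD11b, was at 337 and 367 TPM, and *Ptprc*, which encodes CD45, at 646 and 608 TPM. Their centred ratios were -0.64 and -0.43, and that of *Ptprc* changed sign without centring. *Csf3r*, the receptor for the neutrophil growth factor G-CSF, was at 1069 TPM in SiglecF hi against 1443 TPM in SiglecF lo neutrophils. *Cxcr2*, the main neutrophil chemokine receptor, was at 376 and 876 TPM, so neutrophil receptor transcripts were present in both libraries.

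Granule and maturation genes gave the largest list of falls. Of 30 such genes written down, 25 were compared, and 21 were lower and 0 higher in SiglecF hi neutrophils, against 7.82% and 5.02% of all genes. Their median was -2.93, where that of all genes is 0. Together they summed to 43141 TPM in WT SiglecF hi, 172883 in WT SiglecF lo, 46624 in *Cd300a-/-* SiglecF hi and 233444 in *Cd300a-/-* SiglecF lo neutrophils. All 21 were also lower in the *Cd300a-/-* pair, and 19 of them passed -1 without centring. In bulk samples, fewer cells that carry a transcript and less of it per cell cannot be told apart.

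The falls were read by granule class. Among genes of secondary granules, *Ngp*, which encodes neutrophilic granule protein, was at 13.0 TPM in SiglecF hi against 1177 TPM in SiglecF lo neutrophils, and *Camp*, which encodes the antimicrobial cathelicidin, at 4.96 and 298 TPM. Their centred ratios were -6.92 [-7.14, -6.69] and -6.17 [-6.58, -5.75]. In *Cd300a-/-* the ratios were -4.02 and -3.52, with 293 and 44.8 TPM left in the SiglecF hi library. The iron-binding genes *Ltf* (lactoferrin) and *Lcn2* (lipocalin 2) had ratios of -3.25 and -3.82. *Mmp8*, the neutrophil collagenase of secondary granules, fell from 619 to 71.8 TPM (-3.61). *Mmp9*, the gelatinase of tertiary granules, was at 1440 TPM in SiglecF lo and 1297 TPM in SiglecF hi neutrophils (-0.67) and did not pass -1. *Retnlg*, a resistin-like secreted protein of immature and circulating neutrophils, was the sixth most abundant transcript of SiglecF lo neutrophils at 12110 TPM and stood at 590 TPM in SiglecF hi neutrophils. Its ratio was -4.88 in WT and -4.77 in *Cd300a-/-*.

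Among the rest of that list, *S100a8* was at 61914 and *S100a9* at 76228 TPM in SiglecF lo neutrophils, against 10370 and 13719 TPM in SiglecF hi neutrophils. Both were among the 10 most abundant transcripts of the SiglecF hi library. *Padi4*, whose enzyme citrullinates histones in extracellular trap formation, was at 140 and 21.7 TPM, lower in SiglecF hi. *Cd177*, a surface glycoprotein of a neutrophil subset, was at 143 and 21.0 TPM, again lower. The chemotactic factor *Prok2* had only 3.33 TPM in WT SiglecF hi against 19.2 TPM in WT SiglecF lo neutrophils, against 16.1 and 222 TPM in the *Cd300a-/-* pair. Of the members compared 2 had a ratio above 0, the higher of them *Lyz2* (0.44), the lysozyme gene shared with macrophages, at 13938 and 7165 TPM. The azurophil genes *Mpo*, *Elane*, *Prtn3* and *Ctsg*, which are transcribed in marrow promyelocytes, were below the limit, and *Ctsg* had 0 counts in both WT libraries.

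The list of surface and chemoattractant receptors lay mostly below the median gene, with 32 of 35 ratios below 0, but 22 passed neither threshold. All 35 written were compared, among them the cytokine gene *Osm*, which encodes no receptor. Of the 35, 13 were lower and 0 higher, where 7.82% and 5.02% of all genes were. The median was -0.76 in WT and -0.86 in *Cd300a-/-*. Without centring, 6 stayed past -1 and 3 passed 1. All 13 were lower in the *Cd300a-/-* pair too. The chemokine receptor *Cxcr1* was at 14.1 TPM in SiglecF hi against 58.4 TPM in SiglecF lo neutrophils, and the formyl peptide receptors *Fpr1* and *Fpr2* were at 156 and 520 TPM and at 432 and 764 TPM. Each was lower in SiglecF hi neutrophils. *Selplg*, the ligand of P-selectin, and *Itgal*, the integrin chain of LFA-1, also fell, with ratios of -1.71 and -1.58. *Cxcr4*, a receptor that retains neutrophils in the marrow, was at 1641 and 1521 TPM, and its ratio of -0.41 changed sign without centring. Against the list's direction, the chemerin receptor *Ccrl2* was at 1646 and 751 TPM (0.61), the complement receptor *C3ar1* had a ratio of 0.85, and the inhibitory Fc receptor *Fcgr2b* had 0.64. None of these 3 passed 1.

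The list of genes taken as reported for SiglecF hi neutrophils held 21 genes, all compared. It was written with earlier results of these data known. Of these 7 were higher (9 without centring) and 0 lower, with a median of 0.46 in WT and 0.59 in *Cd300a-/-*, where 8 were higher and 2 lower. *Gpnmb*, a transmembrane glycoprotein of lysosomes, had the largest ratio, from 482 TPM in SiglecF hi against 47.7 TPM in SiglecF lo neutrophils, 2.79 [2.71, 2.88]. It was at 299 and 24.95 TPM in the *Cd300a-/-* pair. *Icam1*, the ligand of β2 integrins, was at 716 and 181 TPM (1.46). *Spp1*, which encodes the matrix protein osteopontin, was at 4111 and 1349 TPM (1.09). *Ltc4s*, which makes the lipid mediator leukotriene C4, was at 106 and 30.1 TPM (1.26). The list did not move as 1 block, since *Hif1a* (-0.93), the hypoxia-inducible factor, and *Slc2a1* (-0.78), a glucose transporter, had negative ratios in WT and passed -1 in *Cd300a-/-* (-1.19 and -1.41). *Myc*, at 20.9 and 14.0 TPM, had a ratio of 0.03.

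**Figure D2:**
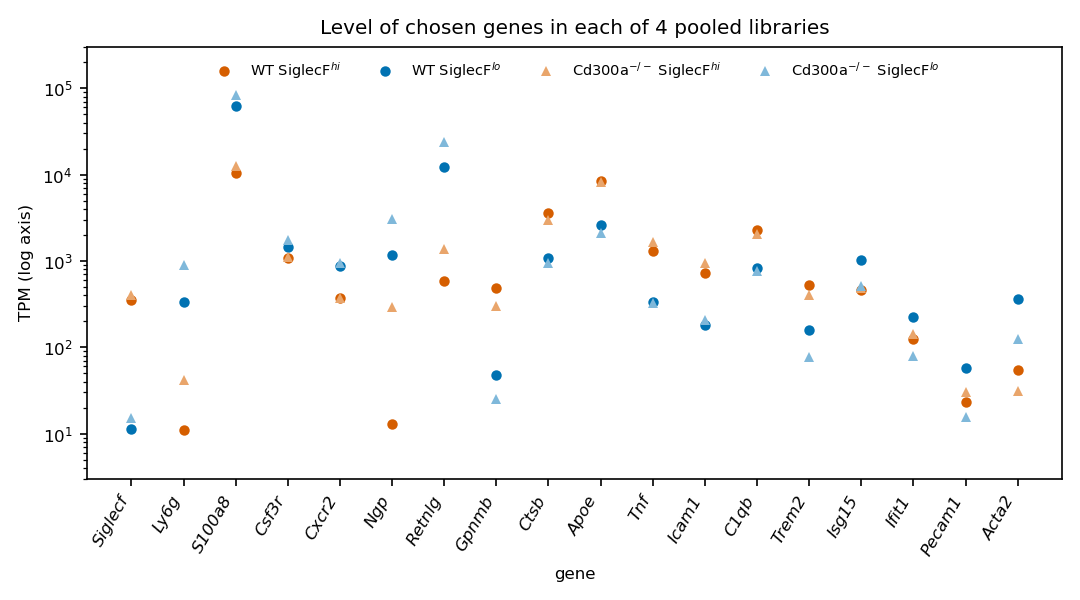
Levels (TPM, log axis) of 18 genes in the 4 pooled libraries, with circles for WT and triangles for *Cd300a-/-*, orange for SiglecF hi and blue for SiglecF lo. In both pairs *Siglecf*, *Gpnmb* and *Apoe* are higher and *Ly6g*, *Ngp* and *Cxcr2* lower in SiglecF hi neutrophils; *Ifit1* and *Pecam1* differ in opposite directions in the pairs.

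Lysosomal genes shifted upward as a group. All 38 were compared, and 33 had a ratio above 0. Of the 38, 9 were higher and 0 lower, where 5.02% and 7.82% of all genes were. The median was 0.73, against 0 for all genes. Without centring 37 were above 0 and 26 passed 1. The summed level was 34937 TPM in WT SiglecF hi, 14546 in WT SiglecF lo, 29328 in *Cd300a-/-* SiglecF hi and 12305 in *Cd300a-/-* SiglecF lo neutrophils. In *Cd300a-/-* the median was 0.57, and 5 of the 9 were past 1 there.

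The rise reached several kinds of lysosomal protein. Among proteases, *Ctsb* (cathepsin B) was at 3618 TPM in SiglecF hi against 1088 TPM in SiglecF lo neutrophils (1.21), and *Ctsk*, the collagen-cleaving cathepsin K, at 23.9 and 7.59 TPM (1.02). *Ctsd* (cathepsin D), the most abundant member, was at 6716 and 2532 TPM (0.89). Among glycosidases, *Glb1* (β-galactosidase), *Gaa* (acid α-glucosidase) and *Gusb* (β-glucuronidase) had ratios of 1.25, 1.26 and 1.02. Enzymes of protein and sugar breakdown were thus both among the 9. *Lamp1*, a protein of the limiting membrane, was at 1256 and 421 TPM (1.05), while its relative *Lamp2* was at 303 and 218 TPM (-0.05), which changed sign without centring. Isoforms of the d subunit of the proton pump differed. *Atp6v0d2*, the d2 isoform found in osteoclasts and macrophages, was at 32.3 and 2.29 TPM (2.82 [2.46, 3.18]), whereas the ubiquitous isoform *Atp6v0d1* was at 303 and 315 TPM (-0.58).

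Promoters are shown for the lysosomal genes that rose, because the letters CACGTG occur in the promoters of many lysosomal genes. RefSeq (GRCm38.p6) gave a promoter for 27 of the 38 genes, too few to give a share over the list, so that check is void. CACGTG, which reads the same on both strands, lay in the 250 bases before the start of transcription in 6.86% of all 27025 promoters and in 11.03% of the 5266 of genes compared. Among the 9 genes that rose, *Gaa* (chr11:119267803-119267848, plus strand), *Glb1* (chr9:114401010-114401055, plus strand) and *Lamp1* (chr8:13159080-13159125, plus strand) held it. It was also in the promoters of *Atp6v1a*, *Ctsa*, *Ctsd*, *Ctsl*, *Gla*, *Lgmn* and *Mcoln1*, which were not past 1. Capitals mark the first match in each window, and a match is a description of these letters only.
Gaa: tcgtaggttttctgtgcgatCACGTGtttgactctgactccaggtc
Glb1: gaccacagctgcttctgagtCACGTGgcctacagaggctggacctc
Lamp1: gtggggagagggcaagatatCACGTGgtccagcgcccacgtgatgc

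Of 21 cholesterol and lipid genes, 16 were compared, and 3 were higher and 0 lower. In *Cd300a-/-* 2 were higher and 1 lower, and 1 gene was higher in both pairs. The median was 0.40 in each. Without centring 8 were past 1 in WT, with a median of 0.92. *Apoe*, the apolipoprotein that carries lipid out of cells, was at 8313 TPM in SiglecF hi against 2637 TPM in SiglecF lo neutrophils (1.14), and at 8107 and 2109 TPM in the *Cd300a-/-* pair. *Fabp5*, a fatty acid-binding protein, was at 1293 and 344 TPM (1.39), with a ratio of 0.91 in *Cd300a-/-*. The cholesterol synthesis enzyme *Hmgcs1* was at 24.9 and 7.84 TPM (1.03), with a ratio of 0.43 in *Cd300a-/-*.

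Of 29 cytokines and growth factors, 20 were compared, and 7 were higher and 2 lower, with a median of 0.34. In *Cd300a-/-* 6 were higher and 2 lower, with a median of 0.28. *Il1b*, the inflammatory interleukin-1β and the most abundant member, was at 9987 and 9239 TPM, and its WT ratio of -0.41 changed sign without centring and was 0.24 in *Cd300a-/-*. *Tnf*, an inflammatory cytokine, was at 1309 and 333 TPM (1.45). *Il10*, an anti-inflammatory cytokine, was at 25.1 TPM in WT SiglecF hi against 4.01 TPM in WT SiglecF lo neutrophils (1.86), but at 18.7 and 9.29 TPM in the *Cd300a-/-* pair (0.31). It was the only 1 of the 7 that was not past 1 in both pairs. *Tnfsf9*, the ligand of the costimulatory receptor 4-1BB, was at 61.3 and 14.8 TPM in WT (1.46) and at 69.7 and 9.98 TPM in *Cd300a-/-* (2.06). *Igf1*, a growth factor of tissue repair, was at 30.2 and 7.94 TPM (1.29). *Il15*, which maintains NK and memory T cells, and *Tnfsf14*, known as LIGHT, were the members that fell, with ratios of -1.45 and -1.21 in WT and -1.56 and -1.24 in *Cd300a-/-*. Neither stayed past -1 without centring.

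Chemokines as a list stood at the median gene. Of 17 written 13 were compared, with 0 higher, 2 lower and a median of -0.04 that became 0.48 without centring. In *Cd300a-/-* the median was 0.67 and 3 were higher. *Ccl6*, a macrophage and neutrophil chemokine of the mouse, was at 1060 TPM in SiglecF hi against 2498 TPM in SiglecF lo neutrophils (-1.76), and at 852 and 1964 TPM in the *Cd300a-/-* pair. *Ccl5*, a T cell attractant, had a ratio of -1.01 in WT and 0.74 in *Cd300a-/-*, and its WT levels were 12.2 and 17.6 TPM. The neutrophil attractant *Cxcl2* was the most abundant member at 4829 and 2801 TPM (0.27). The macrophage inflammatory protein genes *Ccl3* and *Ccl4* had ratios of 0.78 and 0.46 in WT, and of 1.41 and 1.18 in *Cd300a-/-*.

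NF-κB subunits and feedback genes differed little, with 1 of 14 compared (of 15) higher, 0 lower and a median of 0.09, which was -0.08 in *Cd300a-/-*. The member that rose was *Tnfaip3*, which encodes the feedback inhibitor A20, at 528 TPM in SiglecF hi against 183 TPM in SiglecF lo neutrophils (1.01), and 1.08 in *Cd300a-/-*. This single call was lost with TMM (0.99), with a limit in at least 1 library (0.96), at a mean above 1 TPM (0.97) and with a pseudocount of 0.1 (0.999). Of 45 myeloid and stress transcription factors 41 were compared, and 1 was higher and 3 lower. Of all genes 5.02% were higher and 7.82% lower, so no difference of the list is read from these counts. The median of the factors, -0.23, became 0.29 without centring, when 7 passed 1. In *Cd300a-/-* it was -0.14, with 1 higher and 6 lower. *Cebpa*, which directs granulocyte and monocyte development, was at 146 and 43.9 TPM (1.20), and its ratio in *Cd300a-/-* was 0.38. *Spi1*, which encodes the myeloid factor PU.1, was at 395 and 611 TPM (-1.15), and *Cebpd* at 83.3 and 133 TPM (-1.19). The AP-1 subunit *Fosl1* fell by 1.72 on the log2 scale. All 3 falls had a ratio past -1 in *Cd300a-/-* as well, and only that of *Fosl1* stayed past -1 in WT without centring.

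Glycolysis and hypoxia genes lay below the median gene. Of 26 written 24 were compared, with 0 higher and 3 lower, where 5.02% and 7.82% of all genes were. The median of -0.58 was -0.06 without centring, when 2 stayed past -1. In *Cd300a-/-* 7 were lower, with a median of -0.69. *Slc2a3*, the high-affinity glucose transporter of neutrophils, was at 39.7 TPM in SiglecF hi against 157 TPM in SiglecF lo neutrophils (-2.48), and the lactate exporter *Slc16a3* at 297 and 804 TPM (-1.95). *Gpi1*, the second enzyme of glycolysis, was at 322 and 464 TPM (-1.04). *Ldha*, lactate dehydrogenase, was at 391 and 319 TPM (-0.23, a sign that changed without centring).

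Genes of mitochondrial respiration stayed close to the median gene. Of 75 nuclear oxidative phosphorylation genes compared (of 76), 0 were higher and 1 lower, with a median of 0.04 in WT and 0.38 in *Cd300a-/-*, where 7 were higher. Without centring 7 passed 1 in WT. The member that fell was *Ndufa4l2*, a hypoxia-induced relative of a respiratory chain subunit, at 9.39 and 22.1 TPM (-1.67). None of the 13 genes encoded on mitochondrial DNA passed 1 in either direction, and their median was -0.09, or 0.43 without centring, and -0.17 in *Cd300a-/-*. None of 78 cytosolic ribosomal protein genes (of 81) passed 1, and their median was -0.18, or 0.34 without centring, and 0.15 in *Cd300a-/-*. Among 10 proliferation genes compared (of 18) 1 was higher and 0 lower, with a median of 0.67, and 7 passed 1 without centring. In *Cd300a-/-* 4 were higher. The member past 1 in WT was *Mki67*, a nuclear antigen of cycling cells, at 17.7 and 3.69 TPM (1.47), with a ratio of 0.40 in *Cd300a-/-*, and it was not past 1 with a pseudocount of 5 (0.93). Of 18 genes induced by tissue dissociation (of 19), none passed 1 in WT or in *Cd300a-/-*, and the median of -0.16 became 0.36 without centring, when 1 member passed 1.

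Interferon-stimulated genes lay mostly below the median gene in WT SiglecF hi neutrophils, with 34 of 37 ratios below 0. Of 40 written 37 were compared, with 0 higher, 12 lower and a median of -0.60, against 7.82% lower and a median of 0 over all genes. Without centring, 4 stayed past -1, 1 passed 1 and the median was -0.08. In *Cd300a-/-* 2 were higher and 7 lower, with a median of -0.02, and 6 genes were lower in both pairs. The summed level was 8375 TPM in WT SiglecF hi, 13778 in WT SiglecF lo, 9175 in *Cd300a-/-* SiglecF hi and 14498 in *Cd300a-/-* SiglecF lo neutrophils. The list thus lay below the median gene in WT SiglecF hi neutrophils, with 25 of 37 members past neither threshold, and was divided in the other pair. Endothelial markers, read below, had medians of -1.34 in WT and 0.08 in *Cd300a-/-*, and their part in this list's values was not tested.

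The division followed the genes. *Ifitm1* and *Ifitm2*, which restrict viral entry at membranes, were lower in both pairs, *Ifitm1* at 764 and 2021 TPM in WT (-1.92, and -2.74 in *Cd300a-/-*) and *Ifitm2* at 2467 and 4503 TPM (-1.39 and -1.65). *Isg15*, a ubiquitin-like modifier, was at 466 and 1016 TPM in WT (-1.64) and at 482 and 518 TPM in *Cd300a-/-* (-0.73). *Ifit1*, which binds viral RNA ends, was at 124 and 221 TPM in WT (-1.34) and at 143 and 79.8 TPM in *Cd300a-/-* (0.20). For *Ifit1* the WT SiglecF lo library was the highest of the 4 and the *Cd300a-/-* SiglecF lo library the lowest. The near-identical copies *Ifit3* and *Ifit3b* had WT ratios of -0.79 and -1.11, and reads may not separate them. *Mx1*, a GTPase that blocks influenza viruses, was the member with the highest ratio, 0.77 in WT and 0.28 in *Cd300a-/-*.

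Promoters of the interferon-stimulated genes that fell are shown because GAAA, any 2 bases and GAAA form the core of the interferon-stimulated response element. RefSeq (GRCm38.p6) gave a promoter for 32 of the 40 genes written, and 17 (53.1%) held this motif on either strand in the 250 bases before the start. The share was 3.46% over all promoters and 3.82% over those of genes compared. Printed are *Isg15* (chr4:156200867-156200916, minus strand), *Ifit1* (chr19:34640765-34640814, plus strand), *Oas3* (chr5:120777705-120777754, minus strand) and *Gbp2* (chr3:142620584-142620633, plus strand). They are 4 of the 12 that fell, and *Ifit3b*, *Ifitm2* and *Rsad2*, which also fell, held the motif too. It lay as well in the promoters of *Bst2*, *Gbp3*, *Gbp5*, *Gbp7*, *Ifit3*, *Igtp*, *Irgm1*, *Oas1a*, *Slfn5* and *Stat2*, which were not past -1. Capitals mark the first match, which reads as TTTC, 2 bases and TTTC where the motif is on the other strand.
Isg15: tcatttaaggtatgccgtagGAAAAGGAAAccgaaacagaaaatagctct
Ifit1: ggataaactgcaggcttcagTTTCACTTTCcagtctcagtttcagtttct
Oas3: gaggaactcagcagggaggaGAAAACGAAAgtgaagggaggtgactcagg
Gbp2: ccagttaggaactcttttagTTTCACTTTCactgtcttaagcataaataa

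Antigen presentation genes were read by class. Of 13 MHC class I genes compared (of 14) 0 were higher and 2 lower, where 5.02% and 7.82% of all genes were, with a median of -0.55 in WT and -0.03 without centring. In *Cd300a-/-* 1 was higher and 0 lower, with a median of 0.07. The 2 were *H2-T23*, which encodes the non-classical molecule Qa-1, at 318 and 460 TPM (-1.05), and the immunoproteasome subunit *Psmb9* at 67.7 and 98.6 TPM (-1.05), neither past -1 without centring. None of 6 MHC class II genes (of 7) passed 1, with a median of -0.65 in WT and -0.83 in *Cd300a-/-*. *Cd74*, the invariant chain and the most abundant of them, was at 1170 and 1280 TPM.

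**Figure D3:**
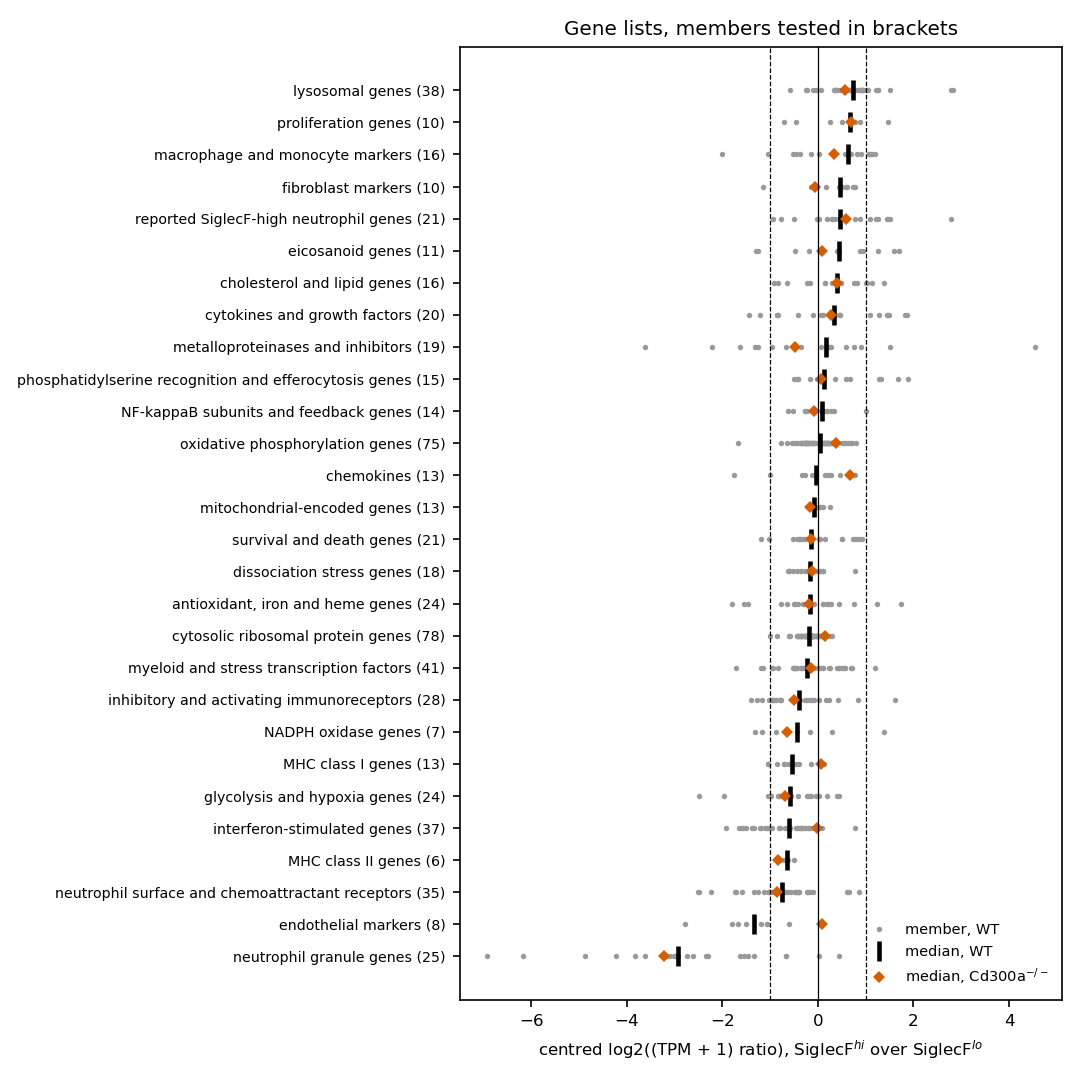
Centred log2 ratio of SiglecF hi over SiglecF lo for gene lists with at least 5 members compared, with a grey point per member in WT, a black bar at the WT median and an orange diamond at the *Cd300a-/-* median. Medians of the lists shown run from -2.93 for granule genes to 0.73 for lysosomal genes (the smooth muscle and pericyte list, added later, is not drawn), and those between -0.52 and 0 change sign without centring.

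Oxidant and iron genes went both ways. Of the 7 NADPH oxidase genes 1 was higher and 2 lower, and the median of -0.43 became 0.09 without centring and was -0.64 in *Cd300a-/-*. The cytosolic subunit *Ncf4* was at 286 and 447 TPM, lower in SiglecF hi, while the proton channel *Hvcn1* was at 43.0 and 10.7 TPM (1.39). Neither fall was past -1 without centring. The membrane subunit *Cybb* had a ratio of 0.29. Of 24 antioxidant, iron and heme genes (of 26), 2 were higher and 3 lower, where 5.02% and 7.82% of all genes were, and no difference of the list is read from this. The median of -0.17 became 0.35 without centring, and in *Cd300a-/-* it was -0.20, with 1 higher and 5 lower. The transferrin receptor *Tfrc*, which brings iron in, was at 33.4 and 6.24 TPM (1.73), and the iron exporter *Slc40a1* at 108 and 207 TPM (-1.45). *Steap4*, a metalloreductase of iron uptake, was at 84.8 and 207 TPM (-1.79) and stayed past -1 without centring, which the fall of *Slc40a1* did not. The ferritin light chain *Ftl1* was the most abundant transcript of SiglecF hi neutrophils, at 21556 TPM against 13934 TPM in SiglecF lo neutrophils (0.11).

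Of 21 survival and death genes compared (of 23), 0 were higher and 2 lower. Of all genes 5.02% were higher and 7.82% lower, so no difference of the list is read from these counts. The median of the list was -0.13, or 0.38 without centring. In *Cd300a-/-* 4 were higher and 2 lower, with a median of -0.15. The pro-apoptotic *Bid* and the inflammatory caspase gene *Casp4* fell, with ratios of -1.20 and -1.02 that were not past -1 without centring, when 7 other members passed 1. The anti-apoptotic copies *Bcl2a1a*, *Bcl2a1b* and *Bcl2a1d* had ratios of 0.93, 0.78 and 0.86 in WT and of 1.25, 1.38 and 1.61 in *Cd300a-/-*. These copies are near-identical, so the division of reads among them is uncertain. *Mcl1*, on whose short-lived protein neutrophil survival depends, was at 1501 and 1265 TPM (-0.27, a sign that changed without centring).

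Of 28 inhibitory and activating immunoreceptors (of 30), 1 was higher and 4 lower, with a median of -0.39, or 0.13 without centring, when 2 were higher and 0 lower. In *Cd300a-/-* 1 was higher and 8 lower, with a median of -0.51. *Cd300a*, the gene deleted in the other pair, was at 163 TPM in WT SiglecF hi against 127 TPM in WT SiglecF lo neutrophils, and at 0.74 and 1.06 TPM in the *Cd300a-/-* libraries. Its WT ratio of -0.16 changed sign without centring, so the receptor transcript differed little between the subsets. *Siglec1*, a sialic acid-binding receptor of macrophages, was at 43.6 and 9.21 TPM (1.61). *Siglece*, an inhibitory receptor of neutrophils from the same family, was at 178 and 253 TPM (-1.02). The C-type lectin *Clec4d* was at 1612 and 2981 TPM (-1.41).

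Metalloproteinases went both ways, with 2 of 19 compared (of 22) higher and 5 lower and a median of 0.18. Without centring 5 were higher and 3 lower. In *Cd300a-/-* the median was -0.48, with 0 higher and 6 lower. *Mmp12*, the macrophage elastase (ENSMUSG00000049723, GRCm39 chr9:7344381-7369499), had a ratio of 4.53 [4.22, 4.85]. It rested on 2462 and 23 counts, or 68.5 and 1.09 TPM, and was 5.31 with a pseudocount of 0.1 and 3.14 with 5, both outside the interval. In *Cd300a-/-* it was at 46.9 and 15.6 TPM (0.90), so the WT SiglecF lo library was the low 1 of the 4. *Mmp2*, a gelatinase of fibroblasts and other cells, was at 64.1 and 14.9 TPM (1.52), with a ratio of 0.51 in *Cd300a-/-*. Besides *Mmp8*, the falls were *Mmp25*, which encodes a neutrophil membrane-bound protease, and *Adam8*, *Adam19* and *Adamts1*, and all 5 were lower in *Cd300a-/-* too.

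Of 15 phosphatidylserine recognition and efferocytosis genes (of 19), 4 were higher and 0 lower, with a median of 0.12, and 6 passed 1 without centring. In *Cd300a-/-* 1 was higher and 0 lower, with a median of 0.06. The scavenger receptor *Stab1* was at 226 TPM in SiglecF hi against 41.9 TPM in SiglecF lo neutrophils (1.88), and the receptor kinase *Mertk*, which takes up dying cells, at 48.8 and 9.91 TPM (1.67). *Gas6*, which bridges that kinase to phosphatidylserine, and *Lrp1*, an endocytic receptor, had ratios of 1.32 and 1.28. Of these 4 only *Mertk* was past 1 in *Cd300a-/-* (1.29). Of 11 eicosanoid genes (of 13), 3 were higher and 2 lower, with a median of 0.45, and 5 passed 1 without centring. In *Cd300a-/-* 1 was higher and 2 lower, with a median of 0.08. The prostaglandin genes *Ptgs1* and *Hpgds* were at 110 and 24.8 TPM (1.59) and at 43.7 and 8.68 TPM (1.69), with ratios of 1.42 and 0.66 in *Cd300a-/-*. *Alox5ap*, which presents substrate to 5-lipoxygenase, was at 1382 and 2286 TPM (-1.24), and the lipase gene *Pla2g7* had a ratio of -1.29. Neither fall was past -1 without centring.

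Markers of other cells were read over whole lists, because several genes above are also expressed by macrophages. All 16 macrophage and monocyte markers were compared, and 5 were higher and 2 lower, where 5.02% and 7.82% of all genes were. The median was 0.63. In *Cd300a-/-* 2 were higher and 1 lower, with a median of 0.33. Without centring 9 were higher and 1 lower. They summed to 8648 TPM in WT SiglecF hi, 4138 in WT SiglecF lo, 7695 in *Cd300a-/-* SiglecF hi and 3788 in *Cd300a-/-* SiglecF lo neutrophils, and no member was at 0 in WT. *C1qb*, a complement gene, led the list with 2257 TPM in WT SiglecF hi against 839 TPM in WT SiglecF lo neutrophils (0.91). *Trem2*, a lipid-sensing receptor of macrophages, was at 520 and 157 TPM (1.20), and *Folr2*, a folate receptor of resident cardiac macrophages, at 201 and 64.8 TPM (1.10), with a ratio of 0.81 in *Cd300a-/-*. *Csf1r*, the receptor for the macrophage growth factor, was at 413 and 318 TPM (-0.14, a sign that changed without centring). *Ly6c2*, a marker of inflammatory monocytes, went the other way at 270 and 756 TPM (-1.999), and so did *Lyve1* (-1.04), a marker of resident macrophages. The part of this list in the lysosomal, lipid, efferocytosis and *Mmp12* results was not tested.

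Markers of eosinophils, which also carry SiglecF, and of lymphoid and mast cells were read next. The peroxidase gene *Epx* and the granule gene *Prg3* had 0 counts in both WT libraries, and *Prg2*, the major basic protein gene, was at 0.272 TPM in SiglecF hi neutrophils and at 0 in the others. The 9 eosinophil markers summed to 119 and 173 TPM, and 110 and 171 TPM of this was *Ear2*, a ribonuclease gene also expressed by monocytes. Of the 9, 2 had 0 counts in the SiglecF hi library and 6 in the less deep SiglecF lo library. *Ear2* was the only member compared (-1.15), and it was not past -1 without centring. In the *Cd300a-/-* pair the list summed to 121 and 87.9 TPM. Of 7 mast cell and basophil markers none was compared, *Cpa3*, *Fcer1a*, *Mcpt4*, *Mcpt8* and *Tpsb2* had 0 counts in both WT libraries, and the sums were 0.752 and 2.75 TPM, with the transcription factor *Gata2* the most abundant. Of 13 T, NK and B cell markers none was compared, *Ighm* was at 0, and the sums were 14.2 and 15.7 TPM, with the B cell receptor gene *Cd79b* the most abundant at 6.13 TPM in SiglecF hi and the T cell receptor gene *Cd3g* at 3.04 TPM in the other library. Of 8 dendritic cell markers only *Itgax*, an integrin chain shared with macrophages, was compared, at 171 and 77.5 TPM (0.61), and the list summed to 179 and 92.8 TPM in WT and to 223 and 92.2 TPM in *Cd300a-/-*. Lymphocyte and mast cell markers were thus at low levels in both WT libraries, as were the eosinophil markers other than *Ear2*.

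Stromal and vessel markers were present at higher levels. Of 10 fibroblast markers compared (of 11), 0 were higher and 1 lower, with a median of 0.47 in WT and -0.06 in *Cd300a-/-*, and 5 passed 1 without centring. They summed to 2843 TPM in WT SiglecF hi, 1481 in WT SiglecF lo, 2071 in *Cd300a-/-* SiglecF hi and 1372 in *Cd300a-/-* SiglecF lo neutrophils, and the most abundant was *Dcn*, the matrix proteoglycan decorin, at 586 and 302 TPM in WT. Endothelial markers differed between the pairs. Of 8 compared (of 10), 0 were higher and 7 lower in WT, with a median of -1.34, but 0 were higher and 1 lower in *Cd300a-/-*, with a median of 0.08. Without centring 3 of the 7 stayed past -1. The sums were 364, 619, 478 and 193 TPM in WT SiglecF hi, WT SiglecF lo, *Cd300a-/-* SiglecF hi and *Cd300a-/-* SiglecF lo neutrophils, with *Fabp4*, a fatty acid-binding protein of capillaries, the most abundant in WT. *Pecam1*, which encodes the endothelial adhesion protein CD31, was at 23.2 and 57.5 TPM in WT (-1.79) and at 30.4 and 15.6 TPM in *Cd300a-/-* (0.30). The WT SiglecF lo library held the most endothelial transcript of the 4.

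Smooth muscle and pericyte genes were added as a list after the values of some members were seen. Of the 15, 9 were compared, and 0 were higher and 9 lower in WT, with a median of -2.98 in WT and -2.46 in *Cd300a-/-*, 8 of them also past -1 in *Cd300a-/-* and 8 past -1 in WT without centring. The sums were 202 TPM in WT SiglecF hi, 1300.0 in WT SiglecF lo, 129 in *Cd300a-/-* SiglecF hi and 513 in *Cd300a-/-* SiglecF lo neutrophils. *Acta2*, which encodes smooth muscle actin, was the most abundant, at 55.2 and 365 TPM in WT (-3.23) and at 31.5 and 123.2 TPM in *Cd300a-/-* (-2.56). *Myl9*, a myosin light chain, was at 31.3 and 294 TPM in WT. These transcripts were thus higher in the SiglecF lo library of each pair, and their part in the list of falls was not tested.

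Of 3 cardiomyocyte markers compared (of 11) none passed 1, and the list summed to 67.7 and 69.0 TPM in WT and to 118 and 36.9 TPM in *Cd300a-/-*. *Tnnt2*, cardiac troponin T, was the most abundant in WT SiglecF hi neutrophils at 13.2 TPM. Of 4 erythroid genes (of 6) 0 were higher and 2 lower, the globin gene *Hba-a2* was the most abundant at 412 and 799 TPM. The sums were 893 and 1417 TPM in WT and 999.7 and 780.5 TPM in *Cd300a-/-*, and neither fall stayed past -1 without centring. Globin genes have near-identical copies, so reads for single copies are uncertain. Of 5 platelet markers only *Pf4*, a chemokine that macrophages also make, was compared, at 867 and 345 TPM (0.81), and *Gp1bb* and *Gp9* had 0 counts in both WT libraries. The list summed to 878 and 353 TPM in WT and to 642 and 244 TPM in *Cd300a-/-*.

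Beyond the lists, the 15 largest rises and 15 largest falls among established symbols were read. For *Psme2b* and *Prss2* the SiglecF lo library had 0 counts. Against a floor of 3 counts in that library, *Psme2b*, a copy of a proteasome activator gene, was at least 30.8-fold and *Prss2*, a trypsin gene, at least 27.9-fold higher in SiglecF hi neutrophils relative to the median gene. In *Cd300a-/-* *Psme2b* was at 16.1 and 15.2 TPM (-0.54, a sign that changed without centring), whereas *Prss2* was at 40.8 and 4.33 TPM (2.34). Both have near-identical copies and their read assignment is uncertain. *Cd5l*, a macrophage-secreted inhibitor of apoptosis, was at 53.8 and 3.25 TPM (3.17 [2.79, 3.55]) and had a ratio of 2.55 in *Cd300a-/-*. *Krt18*, an intermediate filament gene, was at 33.0 and 0.948 TPM (3.61), and at 25.2 and 0.123 TPM in *Cd300a-/-*. There the SiglecF lo library had 1 count, so the ratio of 3.92 [3.57, 4.26] and its narrow interval both depend on the pseudocount. *Anpep*, which encodes the peptidase CD13, was at 97.7 and 11.3 TPM (2.48) in WT and had a ratio of 2.03 in *Cd300a-/-*. *Cd5l* and *Anpep* were thus past 1 in both pairs.

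Other large rises were past 1 in WT only. *Apex1*, a DNA repair endonuclease gene, was at 27.7 and 0.547 TPM in WT, from 346 and 4 counts (3.70 [3.17, 4.22]), and at 24.4 and 12.4 TPM in *Cd300a-/-* (0.30). Its WT ratio was 4.89 with a pseudocount of 0.1 and 2.10 with 5, both outside the interval. *Blnk*, a signalling adaptor, was at 58.0 and 7.05 TPM in WT (2.35) and 59.7 and 28.2 TPM in *Cd300a-/-* (0.43). *Qpct*, which cyclises the ends of secreted peptides, had ratios of 2.47 and 0.55, the iron-sulfur cluster chaperone *Hscb* 2.71 and 0.96, and the small mitochondrial protein gene *Smim26* 2.85 and -0.35. For each of *Apex1*, *Blnk*, *Qpct*, *Hscb* and *Smim26* the WT SiglecF lo library was the lowest of the 4.

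Among the largest falls, *Stfa3*, a cysteine protease inhibitor of the stefin A family, was without a count in the WT SiglecF hi library, which against the floor of 3 counts is at least 47.3-fold lower relative to the median gene. The stefin A genes are near-identical copies, so this too is uncertain. *Ceacam10*, a secreted adhesion protein of neutrophils, was at 5.65 and 75.7 TPM (-4.05 [-4.41, -3.69]) and had a ratio of -3.28 in *Cd300a-/-*. *Wfdc21*, a protease inhibitor-like gene on the granule list, was at 119 and 1571 TPM (-4.23), and -4.20 in *Cd300a-/-*. *Acta1*, the skeletal muscle actin gene, was at 0.816 and 30.9 TPM in WT (-4.65) and at 1.82 and 3.56 TPM in *Cd300a-/-* (-1.32). Its WT ratio was -5.61 with a pseudocount of 0.1 and -3.08 with 5. *Rasd1*, a Ras-like gene induced by glucocorticoids, had -3.64 and -2.94. Of the 10 most abundant transcripts of SiglecF lo neutrophils, *S100a11*, a calcium-binding protein gene, was at 4114 and 11537 TPM (-2.01). *Tmsb4x*, which encodes the actin-binding peptide thymosin β4, was at 10335 and 12879 TPM (-0.84).

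Other ratios above moved by over 1.5-fold with the pseudocount, and all of these stayed past 1. With 0.1 and 5 in place of 1, *Krt18* had 4.45 and 2.22, *Cd5l* 3.48 and 2.38, *Atp6v0d2* 3.23 and 1.90, and *Qpct* 3.01 and 1.45. *Smim26* had 3.38 and 1.78, and *Hscb* 3.01 and 1.93. Among the falls, *Camp* had -6.41 and -5.38, *Ceacam10* -4.25 and -3.38, *Rasd1* -3.86 and -2.96, and *Prok2* -3.03 and -1.995. Calls close to the threshold were lost under several alternatives. Besides *Mki67*, a pseudocount of 5 ended those of *Casp4*, *Ccl5*, *Ctsk*, *Gbp2*, *Gpi1*, *H2-T23*, *Hmgcs1*, *Igf1*, *Lyve1*, *Psmb9* and *Siglece*. It also ended those of the receptors *Il17ra*, *Ltb4r1*, *Tlr2* and *Trem1*, the endothelial markers *Cdh5* and *Vwf*, and *Rsad2* and *Thy1*, 20 in all. A TPM above 10 in both WT libraries ended 13 calls, among them those of *Casp4*, *Ccl5*, *Cdh5*, *Gbp2*, *Gpi1*, *H2-T23*, *Il17ra*, *Psmb9* and *Siglece*, and TMM that of *Ccl5*. Besides *Tnfaip3*, a limit in at least 1 library or a mean above 1 TPM ended those of *Ctsk*, *Gusb* and *Hmgcs1*. A mean above 100 TPM, chosen after seeing the data, ended 21 calls, among them those of *Adam8*, *Alox5ap*, *Casp4*, *Cebpd*, *Ear2*, *Fabp4*, *Gbp2*, *Gpi1*, *H2-T23*, *Ncf4*, *Siglece* and *Spi1*.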

How the data were processed

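RNA-Seq of 4 pooled libraries of sorted cardiac neutrophils was read, 1 per genotype and SiglecF gate, and the WT libraries were compared. The authors deposited the count of every gene, in whole numbers that were not normalized, and TPM from CLC Genomics Workbench, scaled for transcript length and to 1 total for all libraries. The deposited RPKM, scaled for length and depth, and the deposited signal in the column CPM, which is depth-scaled counts times 1 factor per library, were not used. Gene positions are on GRCm39, the build in the submitters' processing notes.

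The pseudocount was 1 TPM, the limit a mean of 10 TPM over the WT libraries, and the threshold 1 on the centred log2 scale. Counting intervals took the Poisson error of both counts at 95%, for the ratio with the pseudocount, and were not given where a count was 0. Log2 ratios kept a count of 0 as it was, with the pseudocount added. For the folds printed as at least a value, a count of 0 was set to a floor of 3 counts. No test compared conditions. Each of 36 gene lists is described by its counts and median, and 1 list was added after values were seen. The members and lists were chosen with earlier results of these data known. The genes named are the sorting markers, the 15 largest and 15 smallest ratios without provisional symbols, the 10 most abundant genes of each WT library, and list members past 1, most abundant or of opposite sign. Alternatives were no centring, TMM-scaled counts, pseudocounts of 0.1 and 5, other TPM limits, thresholds of 0.5 and 2, and, chosen after seeing the data, a mean above 100 TPM. The calculations were tested on simulated data. Python 3.11.15, numpy 2.4.6, pandas 2.3.3, matplotlib 3.10.9, R 4.3.3 and edgeR 4.0.16 were used.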

Additional observations from a re-analysis of the deposited data

Results flagged for a closer look

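Of the 327 genes higher in WT 2, and of the 510 lower 10, were past 1 in the opposite direction in *Cd300a-/-*, and 3 of these fall under the rule for naming genes. The other established symbols, chosen after their values were seen, were *Fam110d*, *Depp1*, *Cradd*, *Ctla2a*, *Rpain* and *Apip*, lower in WT, and *Tnc*, with 1.25 in WT and -2.04 in *Cd300a-/-*, which encodes the matrix protein tenascin C. *Cox4i2*, which encodes a lung and smooth muscle isoform of a cytochrome oxidase subunit, had a centred log2 ratio of SiglecF hi over SiglecF lo of -3.66 in WT and 1.92 in *Cd300a-/-*. It had 13 and 99 counts in WT and 30 and 0 counts in *Cd300a-/-*, so the latter ratio depends on the pseudocount. The WT ratio of *Cox4i2* was -4.17 with a pseudocount of 0.1 and -2.56 with 5. *Rtl8a*, a retrotransposon-derived gene, had 2.47 in WT and -2.60 in *Cd300a-/-*, from 26.4 and 2.44 TPM in WT and 2.66 and 13.4 TPM in *Cd300a-/-*. With a pseudocount of 5 the WT ratio of *Rtl8a* was 1.62. *Thy1*, a surface glycoprotein of fibroblasts and T cells, had -1.15 in WT and 1.06 in *Cd300a-/-*, from 11.1 and 17.7 TPM in WT and 6.69 and 1.39 TPM in *Cd300a-/-*. The WT value of *Thy1* was not past -1 without centring (-0.63) or with a pseudocount of 5 (-0.95). Each value rests on 1 library a side, and the difference between the pairs was not tested for any of the 3.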

How the results depend on the processing

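The counts of higher and lower genes in WT (327 and 510), and of those past the threshold in both pairs (105 higher and 354 lower), were recomputed under each alternative. Without centring they were 1296 and 201, and 743 and 135 in both pairs. A pseudocount of 5 gave 175 higher and 50 higher in both pairs. A TPM above 10 in both WT libraries gave 163 and 338, and 64 higher in both pairs. A mean above 1 TPM gave 999 and 1299, and 249 and 604 in both pairs. A threshold of 0.5 gave 1246 and 1359, and 607 and 891; a threshold of 2 gave 29 and 102, and 7 and 76. A mean above 100 TPM, chosen after seeing the data, gave 70 and 115, and 38 and 99. TMM scaling (348 and 528), a pseudocount of 0.1 (390 and 537), a limit in at least 1 library (445 and 663) and a limit on the mean of 4 libraries (336 and 514) stayed within 1.5 times. Limits on TPM and the thresholds change how many genes can be counted by construction; for centring and the pseudocount the cause was not tested.

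Higher genes made up 39.1% of calls with centring, 39.7% with TMM and 86.6% without centring. Of 151 named genes past 1, 47 were no longer past it without centring, 20 with a pseudocount of 5, 4 with a limit in at least 1 library, 4 at a mean above 1 TPM, 2 with TMM and 1 with a pseudocount of 0.1. The other limits left fewer of them, and 0 of 146 (mean of 4 libraries), 13 of 114 (both WT libraries) and 21 of 81 (mean above 100 TPM) were no longer past 1. None of these changed sign. Of 34 list medians, 9 changed sign without centring, 3 at a mean above 1 TPM, 2 with a TPM above 10 in both WT libraries, 2 with it in at least 1, 1 with a pseudocount of 5, and 0 with TMM, a pseudocount of 0.1 or the mean of 4 libraries. At a mean above 100 TPM 7 of 33 changed sign, among them metalloproteinases, eicosanoid and survival genes.

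Within WT each gate has 1 library, and no test was run. Depth limits genes with few counts, such as *Apex1* with 4 counts in WT SiglecF lo neutrophils.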
